A study of Mus musculus with 5 samples.

Results

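The brain proteoglycans and tenascins are 9 genes of the extracellular matrix, taken by their symbols as the 4 lecticans Ncan, Bcan, Vcan and Acan, the link protein Hapln1, the tenascins Tnc and Tnr, and the transmembrane chondroitin sulfate proteoglycans Ptprz1 and Cspg5. Each of the 9 was found on 1 row among the 20178 RefSeq transcripts of the deposited tables, in all 5 libraries. The study examined glia cultured from mouse ventral midbrain (VM) and cortex (Ctx) of the ICR strain, by RNA-seq, and each condition has a single library. The VM, VM C and VM NF libraries came from VM astrocytes and the Ctx AST library from Ctx astrocytes, all of postnatal day 5 and entered in the labels as astrocyte progenitor cells, and the Ctx NPC library came from cortical neural progenitor cells of embryonic day 12, all at passage 2. The VM, Ctx AST and Ctx NPC libraries have no virus in their labels. VM C and VM NF were transduced with lentiviruses, and their labels contradict each other. The title of the series sets Con beside NF, and the study uses N and F for Nurr1 and Foxa2, while the treatment entries give the Nurr1 and Foxa2 viruses to VM C and the mock virus to VM NF. The libraries are called here by their titles, and no difference between them is credited to a virus. In the study's vectors a CMV promoter drove Nurr1 and Foxa2, so expression was not restricted to astrocytes, and the control was the empty vector. Nr4a2, the gene of Nurr1, had 183 reads in VM NF, 53 in VM C and 81 in VM, and Foxa2 had 216, 15 and 68, an order that goes with the titles.

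Lecticans are secreted proteoglycans of the brain that bind hyaluronan at their N-terminal end and tenascins at their C-terminal end, and their core proteins carry chondroitin sulfate chains. Link proteins hold the lectican to hyaluronan, and Tnr cross-links lecticans, which together make the perineuronal nets around mature neurons. Tnc is the tenascin of germinal zones, of developing and reactive astrocytes and of many tissues outside the brain. Ptprz1 is a receptor-type phosphatase whose secreted splice form is phosphacan, and Cspg5 is neuroglycan C. Astrocytes, oligodendrocyte progenitors and neural progenitors are known sources of several of these proteins.

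Library totals lay between 20010818 and 22554835 counted reads. The deposited FPKM is the read count divided by the transcript length and by the library total, and levels are compared between genes on that scale only. A gene with 3 reads, taken as the smallest measurable count, has a CPM, the count scaled to the library total, between 0.133 and 0.150. Intervals are exact 95% counting intervals. They cover counting error only, not the choice of scaling, and PCR copies counted as separate reads would make them too narrow. No difference below has a replicate check or a test of the condition. In these bulk samples, fewer cells of a type and less RNA per cell cannot be told apart.

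Promoter windows are shown for Ncan, Bcan and Tnr, higher in the cortical astrocyte library than in the VM library, and for Tnc, lower there. They are from RefSeq on GRCm38.p6, each with 250 bases before and 50 bases after a listed start, written 5′ to 3′ on the strand of the gene. The capitals mark 3 motifs on either strand, the NFI half-site TTGGC, the TATA box TATAAA and the GC box GGGCGG.
Ncan, chr8:70120795-70121094, minus strand: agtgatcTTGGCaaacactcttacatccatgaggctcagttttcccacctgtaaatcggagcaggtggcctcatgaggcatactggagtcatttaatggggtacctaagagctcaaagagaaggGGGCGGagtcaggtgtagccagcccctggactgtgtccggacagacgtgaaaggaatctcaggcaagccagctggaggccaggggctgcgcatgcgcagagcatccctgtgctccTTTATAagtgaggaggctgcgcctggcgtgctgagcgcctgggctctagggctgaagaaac
Bcan, chr3:88000307-88000606, minus strand: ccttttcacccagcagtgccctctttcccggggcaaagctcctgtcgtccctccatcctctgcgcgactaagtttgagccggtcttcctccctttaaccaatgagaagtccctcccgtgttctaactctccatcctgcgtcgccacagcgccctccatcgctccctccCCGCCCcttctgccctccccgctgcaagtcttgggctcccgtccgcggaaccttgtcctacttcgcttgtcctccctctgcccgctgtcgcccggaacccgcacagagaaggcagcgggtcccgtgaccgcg
Tnr, chr1:159523519-159523818, plus strand: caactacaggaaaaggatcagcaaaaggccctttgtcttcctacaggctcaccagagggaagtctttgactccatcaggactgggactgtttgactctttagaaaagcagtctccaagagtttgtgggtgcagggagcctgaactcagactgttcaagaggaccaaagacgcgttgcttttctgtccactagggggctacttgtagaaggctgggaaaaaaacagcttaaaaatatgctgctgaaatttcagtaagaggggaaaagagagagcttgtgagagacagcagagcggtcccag
Tnc, chr4:64046887-64047186, minus strand: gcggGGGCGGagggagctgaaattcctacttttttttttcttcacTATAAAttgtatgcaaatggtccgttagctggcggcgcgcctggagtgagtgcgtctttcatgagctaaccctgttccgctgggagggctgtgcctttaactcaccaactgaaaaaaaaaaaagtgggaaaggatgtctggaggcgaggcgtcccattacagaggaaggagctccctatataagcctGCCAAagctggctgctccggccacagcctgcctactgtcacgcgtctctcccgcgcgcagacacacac

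The Ncan window held all 3 motifs, with the NFI half-site 243 bases, the GC box 126 bases and the TATA box, on the opposite strand, 11 bases before the start. The Tnc window also held all 3, with the letters TATAAA 205 bases and the NFI half-site 18 bases before the start. Only those exact letters were searched, so the similar letters tatataag, close to the NFI half-site, are not marked. RefSeq lists a second Tnc start whose window overlaps this one. Bcan had only the GC box, 82 bases before the listed start, and Tnr had none of the 3. The Bcan window, up to 88000606, lies inside the gene, which reaches to 88002175. No Bcan start further upstream was searched. Of all 32851 windows of that length in the table, 46.7% held the NFI half-site, 13.6% the TATA box and 35.7% the GC box. The SOX core ACAAT, present in 31.0% of all windows, was found in Tnc and Hapln1 among the 8 members in the table. In Tnc it shares its outermost base with the TATA box. The AP-1 site TGANTCA, present in 7.81% of all windows, was found in none. The GC content of the printed windows was 56.7% for Ncan, 64.0% for Bcan, 48.0% for Tnr and 54.0% for Tnc, against a median of 52.7% over all windows. The Tnr window held none of the 5 motifs searched, so no motif could be shared by Ncan, Bcan and Tnr. Ptprz1, also higher in the cortical astrocyte library, is not printed, and its window held 2 GC boxes. The matches describe the letters alone.

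Ncan, which codes for neurocan, lies on chromosome 8 of GRCm38 from 70093085 to 70120863 and is listed as NM_007789. Its level was 82.5 FPKM in VM (12616 reads), 234 in VM C (37917 reads), 76.5 in VM NF (11174 reads), 348 in Ctx AST (53634 reads) and 252 in Ctx NPC (36251 reads). It was in the upper 5% of all transcripts in each library, at the 95.4 percentile or above, and its highest CPM was 4.55 times its lowest. VM C stood with the cortical libraries rather than with the other VM libraries.

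Bcan, the gene of brevican, lies on chromosome 3 from 87987531 to 88002175 and is listed as NM_007529. It had 11.6 FPKM in VM (813 reads), 19.2 in VM C (1423 reads), 9.67 in VM NF (645 reads), 38.4 in Ctx AST (2701 reads) and 417 in Ctx NPC (27384 reads). The Ctx NPC library was far above the rest, where Bcan ranked 72 among all transcripts, and the range across libraries was 43.2-fold.

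Vcan, the gene of versican, lies on chromosome 13 from 89655309 to 89743027 and is listed as NM_001081249, a transcript of 12447 bases. It had 17.9 FPKM in VM (4745 reads), 32.3 in VM C (9059 reads), 19.8 in VM NF (5012 reads), 15.0 in Ctx AST (4003 reads) and 17.0 in Ctx NPC (4238 reads). This was the lectican with the narrowest range, 2.15-fold, with VM C highest. The counting intervals of VM and Ctx NPC overlapped. Versican is made in several splice forms, and the 1 row per gene does not separate them.

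Acan, the gene of aggrecan on chromosome 7 from 79053226 to 79115099, was close to the limit of measurement, with 6 reads in VM, 7 in VM C, 8 in VM NF, 8 in Ctx AST and 13 in Ctx NPC. Neighbouring libraries overlapped in their counting intervals throughout that order, and the highest level was 0.0881 FPKM. Hapln1, the link protein of cartilage and of perineuronal nets, lies on chromosome 13 from 89540529 to 89611832 and had 1 read in VM, 3 in VM C, 1 in VM NF, 4 in Ctx AST and 20 in Ctx NPC. It was measurable above 3 reads in the cortical libraries only, at 0.0369 and 0.198 FPKM. In Ctx NPC it was 5.36-fold higher than in Ctx AST, with an interval from 1.79 to 21.5, and both FPKM values were below 1. Aggrecan and Hapln1 are thus the components of perineuronal nets that these cultures hardly contained as RNA.

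**Figure D1:**
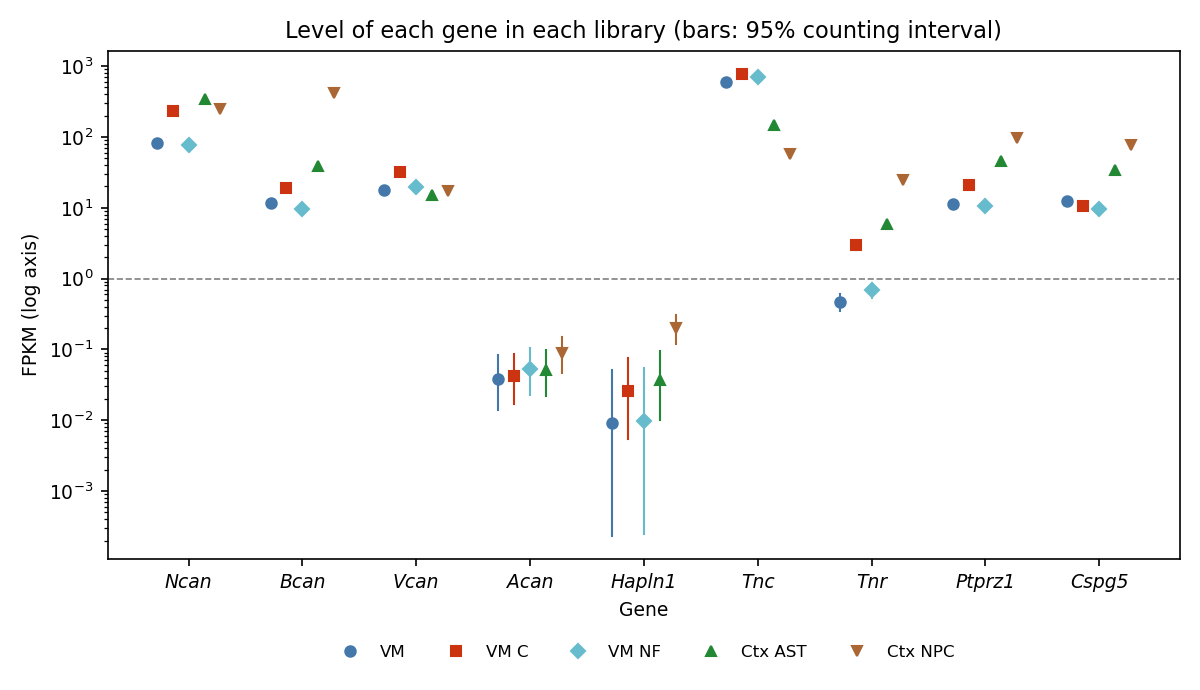
FPKM on a log axis for the 9 genes in the 5 libraries, 1 point per library, with bars for the 95% counting interval and a dashed line at 1 FPKM. Tnc is highest in the VM libraries, Bcan, Tnr, Ptprz1 and Cspg5 are highest in Ctx NPC, and Acan and Hapln1 stay below 1 FPKM in every library.

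Tnc, the gene of tenascin-C, lies on chromosome 4 from 63959785 to 64047015 and is listed as NM_011607. It had 596 FPKM in VM (90534 reads), 775 in VM C (124500 reads), 698 in VM NF (101208 reads), 148 in Ctx AST (22572 reads) and 58.2 in Ctx NPC (8302 reads). The VM libraries were all above the cortical libraries, and in VM NF Tnc ranked 37 among all transcripts. Tnr, the gene of tenascin-R on chromosome 1 from 159523729 to 159931729, is listed as NM_022312. It was higher in the cortical libraries than in the VM libraries, and among the VM libraries highest in VM C, as Tnc was. It had 0.468 FPKM in VM (54 reads), 2.96 in VM C (362 reads), 0.681 in VM NF (75 reads), 5.99 in Ctx AST (696 reads) and 24.98 in Ctx NPC (2708 reads). Its 53.4-fold range was the widest of the 9 genes, and only VM and VM NF overlapped in their counting intervals. Per length, Tnc exceeded Tnr 1275-fold in VM (interval 977 to 1697), 261-fold in VM C, 1026-fold in VM NF, 24.7-fold in Ctx AST and 2.33-fold in Ctx NPC (interval 2.23 to 2.44). The balance of the tenascins therefore spanned more than that of any pair of lecticans examined.

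Ptprz1, on chromosome 6 from 22875315 to 23052916 and listed as NM_001081306, had 11.3 FPKM in VM (1957 reads), 20.8 in VM C (3801 reads), 10.6 in VM NF (1742 reads), 45.3 in Ctx AST (7870 reads) and 97.5 in Ctx NPC (15796 reads). Cspg5, on chromosome 9 from 110243783 to 110262576 and listed as NM_001166273, had 12.5 FPKM in VM (1029 reads), 10.7 in VM C (934 reads), 9.46 in VM NF (746 reads), 34.5 in Ctx AST (2868 reads) and 76.7 in Ctx NPC (5949 reads). Both were lowest in VM NF and highest in Ctx NPC, and they differed in VM C, where Ptprz1 was above VM and Cspg5 below it. The intervals of VM and VM NF overlapped for Ptprz1, as did those of VM C and VM NF for Cspg5. The Ptprz1 row does not tell the receptor from its secreted form.

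The order of the 9 genes by FPKM was the same in VM C and VM NF, close to it in VM, and different in Ctx AST and Ctx NPC. In VM, Tnc and Ncan led, followed by Vcan, then by Cspg5, Bcan and Ptprz1, whose neighbouring intervals overlapped. In Ctx AST, Ncan led at 54.8% of the FPKM summed over the 9 genes and Tnc followed at 23.3%. In Ctx NPC, Bcan led at 44.2%, then Ncan at 26.7% and Ptprz1 at 10.3%, and Tnc fell to the fifth place with 6.17%. Tnc alone made up 81.4% of the summed FPKM in VM, 70.8% in VM C and 84.6% in VM NF. The 4 lecticans together summed to 112 FPKM in VM, 286 in VM C, 106 in VM NF, 402 in Ctx AST and 686 in Ctx NPC. Ncan was 7.09 times Bcan in VM (interval 6.60 to 7.62), 12.2 times in VM C, 7.92 times in VM NF and 9.07 times in Ctx AST, whereas in Ctx NPC Bcan was the higher, 1.65 times Ncan.

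**Figure D2:**
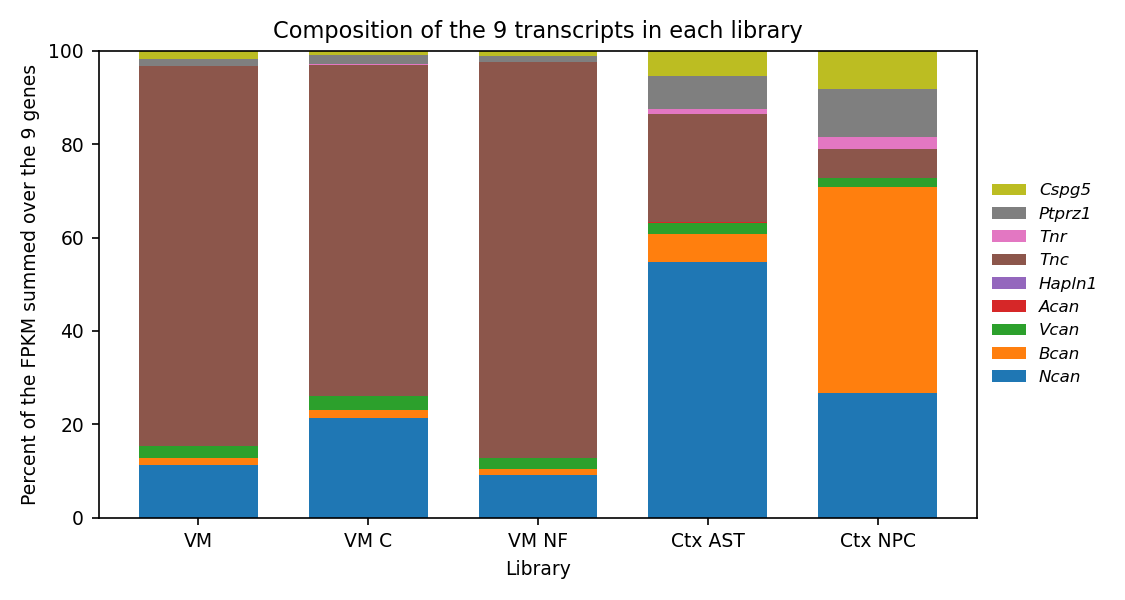
Share of each gene in the FPKM summed over the 9 genes, in percent, for each library. Tnc takes 70.8% to 84.6% in the VM libraries, Ncan 54.8% in Ctx AST and Bcan 44.2% in Ctx NPC.

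The first comparison asked how astrocytes of the cortex and of the ventral midbrain differ without virus. The Ctx AST library held more Ncan, Bcan, Tnr, Ptprz1 and Cspg5 and less Tnc than the VM library, with Vcan nearly level. A gene was counted as past the cutoff at a 2-fold ratio of reads scaled to library totals, with FPKM over 1 in at least 1 of the 2 libraries. Of the 9 members, 7 passed the FPKM filter, 5 of them were past 2-fold higher and 1 lower, against 4.49% of 12553 genes higher and 9.89% lower, or 14.4% in either direction. Tnr was 12.8-fold higher (interval 9.70 to 17.2), Ncan 4.22-fold (4.14 to 4.31), Ptprz1 3.996-fold (3.80 to 4.20), Bcan 3.30-fold (3.05 to 3.58) and Cspg5 2.77-fold (2.58 to 2.98). Tnc was 4.04-fold lower, a log2 ratio of -2.01 (interval -2.03 to -1.99). Vcan was at -0.25 on the log2 scale. The median log2 ratio of the 9 members was 1.58, beside -0.05 over all genes tested, although that median is the value of Hapln1, with 4 reads against 1. Here and below, the 9 include members that did not pass the FPKM filter, whereas all genes tested did.

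Astrocyte markers moved with this difference. The FPKM summed over 10 astrocyte markers was 537 in VM and 1171 in Ctx AST, 6 of the 10 were past 2-fold higher, and none of the list was at 0 reads in either library. Gfap, the astrocyte intermediate filament, had 154 and 476 FPKM. The microglial markers summed to 103 and 34.3 FPKM, with 8 of 11 past 2-fold lower. The fibroblast and meningeal markers summed to 1023 and 418 FPKM, with 6 of 10 past 2-fold lower and 1, Ogn, past 2-fold higher. The oligodendrocyte progenitor markers summed to 152 and 199 FPKM, with none of 10 past 2-fold, Neu4 at 0 reads in VM and Gpr17 at 0 reads in Ctx AST. The part of these cell types in the member differences was not tested.

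**Figure D3:**
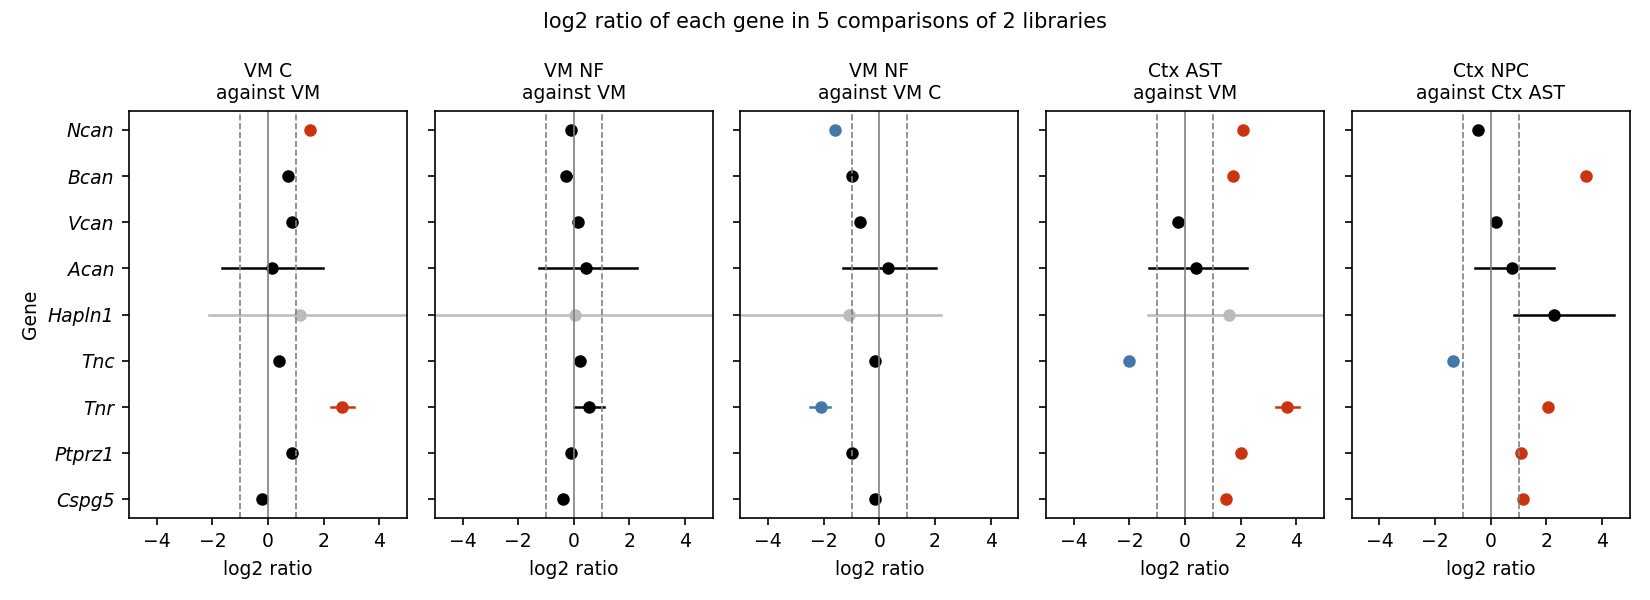
log2 ratio of each gene in 5 comparisons of 2 libraries, with 95% counting intervals that are shortened at the axis limits of the panel. Red and blue mark genes past 2-fold higher and lower with FPKM over 1, black the others, and grey a gene with 3 reads or fewer in a library, where no fold is given. Ctx AST against VM has 5 genes higher and 1 lower, and VM NF against VM has none past 2-fold.

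The second comparison set the Ctx NPC library beside Ctx AST. Bcan, Tnr, Cspg5 and Ptprz1 were higher in Ctx NPC and Tnc was lower, while Ncan and Vcan stayed within 2-fold. Of the 9 members, 7 passed the FPKM filter, with 4 past 2-fold higher and 1 lower, against 20.1% of 12623 genes higher and 17.9% lower, or 38.0% in either direction. Bcan was 10.9-fold higher (interval 10.4 to 11.3) and Tnr 4.17-fold higher (3.83 to 4.54). Tnc was lower by 2.54-fold, a log2 ratio of -1.34 (interval -1.38 to -1.31), and Ncan was at -0.47. Cspg5 was 2.22-fold higher (2.12 to 2.32) and Ptprz1 2.15-fold (2.09 to 2.21), and both went below 2-fold under each of 3 other scalings, at log2 ratios of 0.97 to 0.98 and 0.92 to 0.94. With library totals the median log2 ratio of all genes was 0.19, against 0.01 with edgeR's TMM normalization, and each member's ratio in this comparison is to be read relative to that shift. The median of the 9 members was 1.10. The Vcan ratio of 0.18 was lost with TMM, where its sign turned and its size was below 0.01.

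The labels call the Ctx NPC cells neural progenitors, and their markers went only partly with that. All 10 neural progenitor markers had FPKM over 1, with Sox2 at 201 FPKM, but Gfap had 2246 FPKM and the myelin gene Mbp 1485 FPKM, against 476 and 4.61 in Ctx AST. The oligodendrocyte progenitor markers summed to 1250.2 FPKM, with 9 of 10 past 2-fold higher than in Ctx AST, and the mature oligodendrocyte markers to 3112 FPKM, with 10 of 11 higher. Sox10, the transcription factor of the oligodendrocyte lineage, had 242 FPKM in Ctx NPC and 3.74 in Ctx AST. The astrocyte markers summed to 3465 FPKM, with 3 of 10 higher and 1 lower, Slc1a2 at 10.7 FPKM against 43.2. Microglial markers summed to 0.947 FPKM, with Trem2 at 0 reads. Of 12 neuronal markers, 9 were past 2-fold higher and 1 lower, all 12 had FPKM over 1 in Ctx NPC, and their sum was 226 FPKM against 143. Dcx, the doublecortin of young neurons, had 21.1 FPKM against 0.0103 (2 reads) in Ctx AST. Fibroblast and meningeal markers summed to 52.6 FPKM against 418, with 1 of 10 higher and 7 lower. Whether these cells carry the member differences was not tested.

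**Figure D4:**
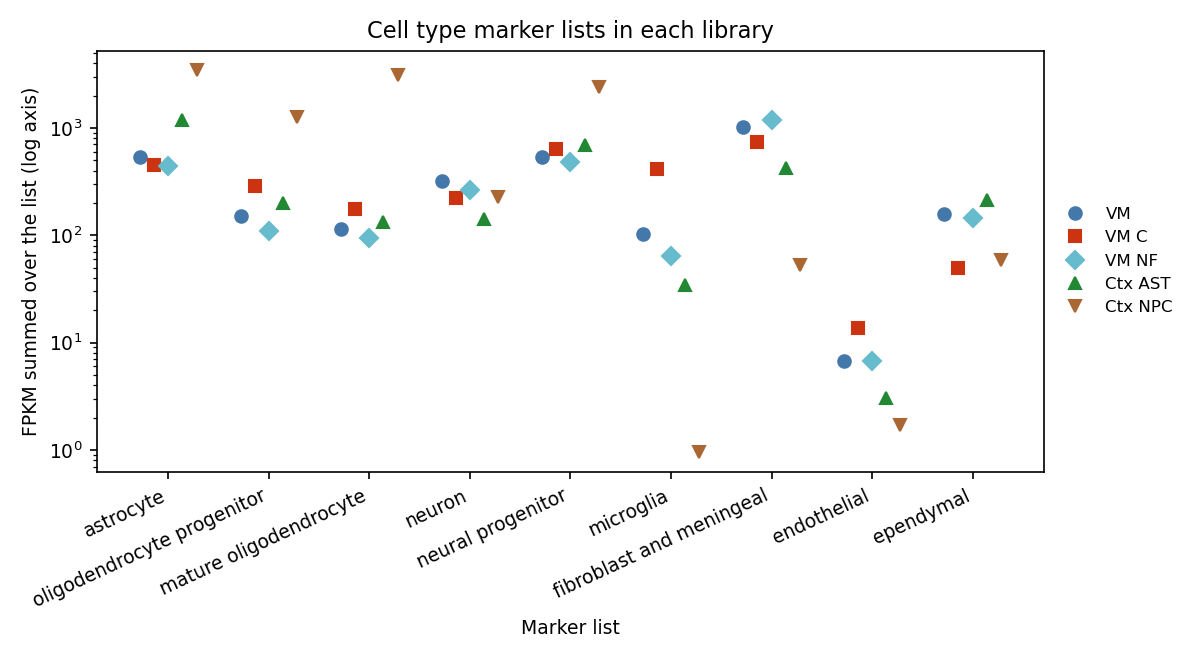
FPKM summed over each of 9 cell type marker lists on a log axis, 1 point per library. Ctx NPC is highest for the astrocyte, oligodendrocyte progenitor, mature oligodendrocyte and neural progenitor lists, and VM C is highest for the microglial list.

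The third comparison concerned the VM libraries, which were made to ask what Nurr1 and Foxa2 do in glia. VM C held more Ncan and Tnr than VM, and VM NF did not differ from VM by 2-fold in any of the 9 genes. In VM C against VM, 2 of the 7 members that passed the FPKM filter were past 2-fold higher and 0 lower, against 7.30% of 12703 genes higher and 8.48% lower, or 15.8% in either direction. Tnr was 6.33-fold higher (interval 4.75 to 8.59) and Ncan 2.84-fold (2.78 to 2.90). Ptprz1 was 1.83-fold higher (1.74 to 1.94), Vcan 1.803-fold (1.74 to 1.87) and Bcan 1.65-fold (1.52 to 1.804), all short of the cutoff. Tnc was 1.30-fold higher and Cspg5 was at 0.857 of its VM level (0.784 to 0.938). The median log2 ratio of the 9 members was 0.85, beside -0.01 over all genes tested.

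In VM NF against VM, 6 members passed the FPKM filter and 0 of the 9 were past 2-fold, where 0.990% of 12428 genes were, 0.322% higher and 0.668% lower. The values lay between -0.40 for Cspg5 and 0.54 for Tnr on the log2 scale, and the interval of Tnr, from 0.02 to 1.07, reached past 2-fold. The median was 0.04, the value of Hapln1 with 1 read in each library. VM NF against VM C shares both libraries with these comparisons. There Ncan was at -1.61 (interval -1.64 to -1.58) and Tnr at -2.11 (-2.50 to -1.76), the 2 members past the cutoff, against 9.73% of 12701 genes lower and 9.53% higher, or 19.3% in either direction. Bcan at -0.99 and Ptprz1 at -0.98 lay just inside 2-fold, and with DESeq2's size factors both passed it, Bcan at -1.02.

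Among the VM libraries, VM C had the highest summed levels of oligodendrocyte progenitor, mature oligodendrocyte, microglial, neural progenitor and endothelial markers. It had the lowest of ependymal, neuronal, and fibroblast and meningeal markers. Some of these sums rested largely on 1 gene. Stmn2 had 188 FPKM in VM C and 304 in VM, while the median log2 ratio of the neuronal list was 1.45. Nes had 318 and 160 FPKM, while the median of the neural progenitor list was -0.42. Cdh5 had 11.6 and 4.59 FPKM, in endothelial sums of 13.5 and 6.70. Oligodendrocyte progenitor markers summed to 289 FPKM in VM C, 152 in VM and 110 in VM NF, and 4 of 10 were past 2-fold higher in VM C than in VM. Sox10 had 10.7, 2.04 and 1.502 FPKM in the same order, and Olig2 49.5, 17.0 and 12.1. Mature oligodendrocyte markers summed to 175, 115 and 93.6 FPKM, with 7 of 11 past 2-fold higher in VM C, and Opalin at 0 reads in VM and VM NF. Microglial markers summed to 411, 103 and 64.4 FPKM, with 9 of 11 higher in VM C. Ependymal markers summed to 49.4, 158 and 146 FPKM, with 3 of 7 past 2-fold lower and 1 higher in VM C than in VM. Astrocyte markers summed to 447, 537 and 443, with 1 of 10 higher and 1 lower and Gjb6 at 0 reads in VM C. Neuronal markers summed to 221, 319 and 262 FPKM and fibroblast and meningeal markers to 732, 1023 and 1187, in the order VM C, VM and VM NF. Of 12 neuronal markers, 4 were past 2-fold higher and 1 lower in VM C than in VM, of 10 neural progenitor markers 0 higher and 2 lower, of 10 fibroblast and meningeal markers 0 higher and 2 lower, and of 6 endothelial markers 1 in each direction. Their part in the Ncan and Tnr values was not tested.

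Other matrix genes were read from 8 lists with 72 genes in all. Of 62 that passed the FPKM filter, VM C against VM had 10 past 2-fold higher and 5 lower. The shares of all genes tested were 7.30% and 8.48%. VM NF against VM had 0 of 61 in either direction, where 0.990% of all genes were. Ctx AST against VM had 3 of 62 higher and 10 lower, against 4.49% and 9.89%. Ctx NPC against Ctx AST had 11 of 61 higher and 24 lower, against 20.1% and 17.9%. The VM library serves in 3 of the comparisons and Ctx AST in 2, so the counts are not independent of each other.

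The other link proteins differed in level. Hapln4, the link protein of inhibitory perineuronal nets, had 6.74 FPKM in VM, 6.88 in VM C, 7.33 in VM NF, 10.1 in Ctx AST and 1.30 in Ctx NPC. It was thus far above Hapln1 per length in every library, and Hapln2 was at 0 reads in the 3 VM libraries. Hapln3 had 1.40 FPKM in VM, 0.462 in VM C, 1.197 in VM NF, 2.27 in Ctx AST and 0.660 in Ctx NPC, and was past 2-fold lower in VM C than in VM and in Ctx NPC than in Ctx AST. Among further tenascins, Tnn was at 0.708 FPKM in VM and 4.91 in Ctx AST, a log2 ratio of 2.79, and Tnxb was at 0.132 in VM and 1.06 in VM C. In the hyaluronan list, Has2, the main hyaluronan synthase, had 7.47 FPKM in VM, 28.8 in VM C, 3.90 in VM NF, 1.505 in Ctx AST and 6.31 in Ctx NPC. Cemip, which breaks hyaluronan down, ran opposite in the VM libraries, with 62.6, 21.3 and 95.7 FPKM in the same order, and had 37.0 in Ctx AST and 0.833 in Ctx NPC. Cd44, the hyaluronan receptor, was between 83.1 and 233 FPKM in all libraries, and was past 2-fold only in Ctx NPC against Ctx AST, at -1.07.

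Of 12 further proteoglycans, 2 were past 2-fold higher and 0 lower in VM C than in VM, 0 and 4 in Ctx AST against VM, and 0 and 6 in Ctx NPC against Ctx AST. Serglycin, the proteoglycan of blood cell granules encoded by Srgn, was at a log2 ratio of 1.35 in VM C against VM and -2.79 in Ctx AST against VM, and Thbd, which codes for thrombomodulin, was at 1.93 and -2.18. Dcn, the gene of decorin of fibrous tissue, was at -3.67 in Ctx AST against VM, and is itself 1 of the fibroblast and meningeal markers. In that comparison 6 of those 10 markers were past 2-fold lower and 1 higher, and 8 of 11 microglial markers were lower. The part of these cell types in the values was not tested. Cd44 stands in the list of further proteoglycans and in the hyaluronan list. Cspg4, also a further proteoglycan, is itself 1 of the oligodendrocyte progenitor markers.

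The enzymes of chondroitin sulfate were read in a list for chain synthesis and a list for sulfation. Of 12 genes for chain synthesis, 2 were past 2-fold higher and 0 lower in VM C than in VM, 1 higher and 0 lower in Ctx AST than in VM, and 2 higher and 0 lower in Ctx NPC than in Ctx AST. Xylt1, which adds the first sugar to the core protein, was in all 3 counts, with 0.746 FPKM in VM, 3.35 in VM C, 1.77 in Ctx AST and 6.18 in Ctx NPC. B3galt6, an enzyme of the linker sugars, was in the VM C and Ctx NPC counts. In the sulfation list, 4 of 12 genes were higher and 4 lower in Ctx NPC than in Ctx AST. Ust, which sulfates the uronic acid, had 19.5 FPKM against 2.45 and Chst3, which adds sulfate at the 6 position of the amino sugar, 27.8 against 4.28, while Chst14 and Dse, which make dermatan sulfate, had 4.91 against 16.2 and 4.25 against 10.5. The 4-sulfotransferase Chst11 had 73.7 FPKM in VM C and 27.6 in VM, the only gene of the list past 2-fold there.

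Proteases that cleave lecticans split by library. Adamts4 was higher in Ctx NPC than in Ctx AST, with 20.5 against 4.66 FPKM, as was Adamts20, with 2.51 against 0.311. Adamts5 was lower, with 0.678 against 12.1 FPKM, as was Adamts1, with 14.4 against 80.0, and their inhibitor Timp3 had 39.6 against 179. In VM C against VM, Adamts1 was higher, with 107 against 52.8 FPKM, and Adamts15 was lower, with 0.261 against 1.03. In Ctx AST against VM, Adamts15 was the 1 gene of the list past 2-fold, with 0.275 FPKM. Among 12 receptors and binding partners, 7 were past 2-fold lower and 0 higher in Ctx NPC than in Ctx AST, with Rtn4rl1, a Nogo receptor relative that binds chondroitin sulfate, at 0.725 against 21.9 FPKM. Cntn1, the contactin that binds Tnr and Ptprz1, was past 2-fold higher in VM C and in Ctx AST than in VM, as Ncan and Tnr were, with 4.80 FPKM in VM, 13.1 in VM C, 4.83 in VM NF and 15.1 in Ctx AST, and had 19.3 in Ctx NPC. In VM C against VM, 2 of the list were higher, Cntn1 and the integrin subunit gene Itgb3, with 3.75 against 1.34 FPKM for Itgb3, and 2 were lower, Itga8, with 1.37 against 5.81 FPKM, and the Nogo receptor gene Rtn4r, with 1.54 against 3.75. In Ctx AST against VM, Itgb3 was the 1 gene lower, with 0.499 FPKM. The Ptprz1 ligand Ptn had 60.1 FPKM in VM, 31.8 in VM C, 42.2 in VM NF, 20.5 in Ctx AST and 168 in Ctx NPC, and the other ligand, Mdk, had 65.6, 34.6, 60.5, 53.7 and 207. Ligands and receptor were thus all highest in Ctx NPC, whereas among the astrocyte libraries the ligands were highest in VM, where Ptprz1 was close to its lowest level.

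**Figure D5:**
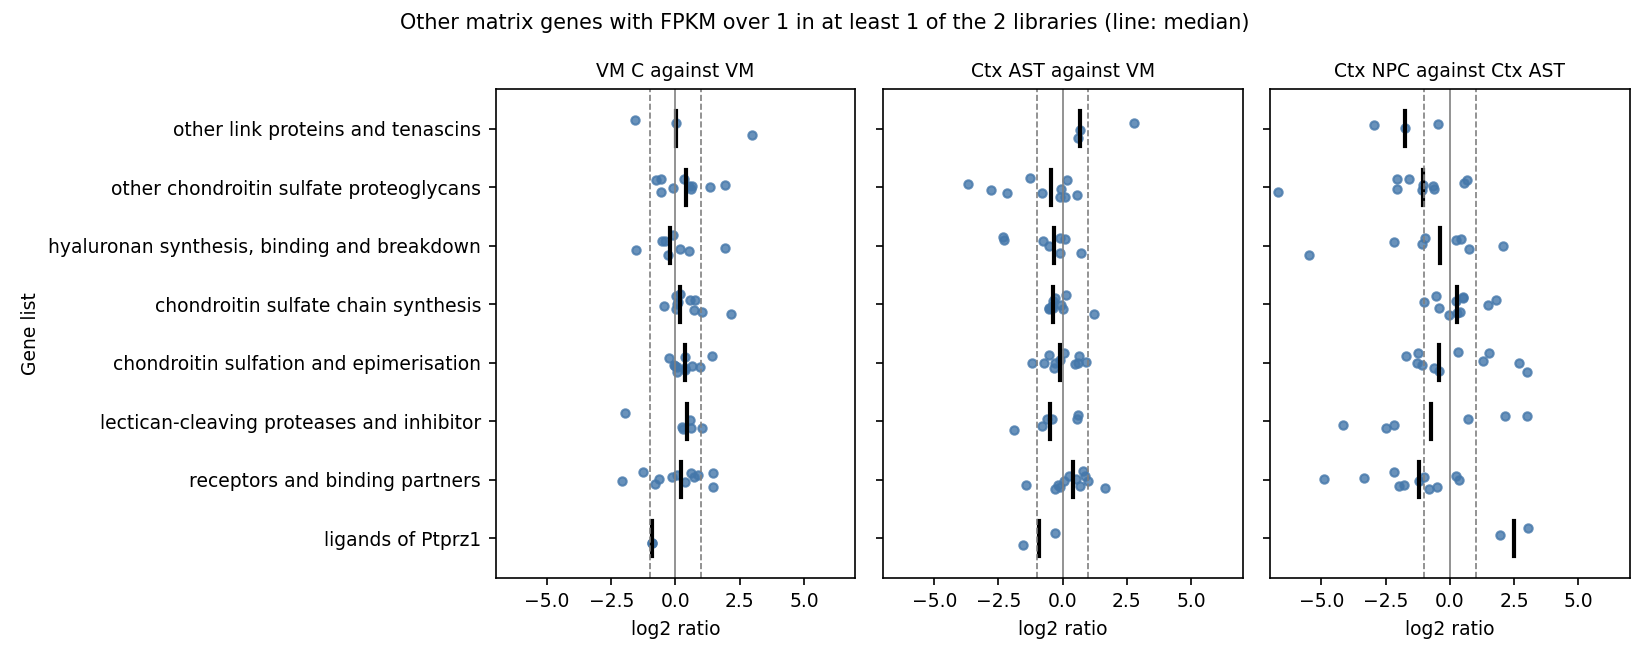
log2 ratio of the other matrix genes by list in 3 comparisons, 1 point per gene with FPKM over 1 in at least 1 of the 2 libraries, with the median of each list as a black line and dashed lines at 2-fold. In Ctx NPC against Ctx AST the points spread widest, with 24 of 61 genes past 2-fold lower and 11 higher. Of all genes tested, 17.9% were lower and 20.1% higher.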

How the data were processed

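RNA-seq of 5 libraries, 1 per condition, was taken from the processed tables of the authors. Before deposit, the authors used a quality cutoff of 20 for trimming, STAR for mapping and HTSeq-count for counting on the exons of RefSeq, Release 105. The paper names GRCm38/mm10, and the submitters' processing notes list mm9. The deposited counts are raw whole-number reads per transcript, and the deposited FPKM were recomputed from them to within a relative difference of 4.09e-05. The strand setting is not given in the sources used here.

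RefSeq accessions on GRCm38.p6 gave 19993 of 20178 transcripts a symbol. The member symbols, gene lists, markers and rule for named genes (at most 4 genes of a list per comparison by size of ratio, among those past 2-fold) were chosen with earlier results of these data known. Some marker and matrix genes are named for their role beyond that rule, after their values were seen. Ratios used library totals with 0.5 reads added, and Clopper-Pearson intervals. With 1 library per group no test was run. Alternatives were edgeR's TMM, DESeq2's size factors, upper-quartile scaling, 5 or no reads added, other FPKM filters and a 2.6-fold cutoff. The calculations were tested on simulated data. Library totals were 20010818 to 22554835. Protein sequences were not used here, and some genes that the rule for pattern likeness names are not reported here. The tools were edgeR 4.0.16 and DESeq2 1.42.0 in R 4.3.3, with pandas 2.3.3, numpy 2.4.6, scipy 1.17.1 and matplotlib 3.10.9 in Python 3.11.15.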

Additional observations from a re-analysis of the deposited data

How the results depend on the processing

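Of 45 member ratios, 44 kept their sign under the 3 other scalings, and the exception is Vcan in Ctx NPC against Ctx AST. Adding reads scaled to library size cannot turn a sign, so the settings with 5 or no reads added are no check of it. The 44 include ratios of Acan and Hapln1 whose counting intervals take in both signs, such as Hapln1 in VM NF against VM with 1 read in each library. With edgeR's TMM, DESeq2's size factors and upper-quartile scaling the median of Ctx NPC against Ctx AST was 0.92, 0.93 and 0.94, and 3 members were past 2-fold with each, in place of 5. With a 2.6-fold cutoff there were 2. In VM NF against VM C, 4 members passed with DESeq2's size factors. With 5 reads added the median was 0.72 in VM C against VM and -0.70 in VM NF against VM C, where Hapln1 has few reads. With FPKM over 1 in both libraries, 1 member passed in each of these comparisons, since Tnr is below 1 FPKM in VM and VM NF. Of the medians and counts recomputed, these 12 moved and 53 did not. Of the single member ratios recomputed, 37 moved outside their counting interval and 188 did not. With TMM, Ncan in Ctx AST against VM was at 2.14, outside its interval of 2.05 to 2.11. Tnc in the same comparison was at -1.95, outside -2.03 to -1.99. The cause of these moves was not tested beyond the reads and FPKM named. No paired analysis was possible because there was 1 library per condition. For the same reason no replicate could be left out. Depth limits Acan and Hapln1, with 1 to 20 reads.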

Other observations

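The genes whose pattern over the 5 libraries was most like a member were looked up among 13238 other genes with a symbol and FPKM over 1 in at least 1 library. Likeness was the root mean square difference of log2 CPM after each gene was centred on its own mean, and with 5 libraries it is a description only. Nearest to Ncan was S100a16, at 0.23, with 41.1 FPKM in VM, 129 in VM C, 29.8 in VM NF, 137 in Ctx AST and 141 in Ctx NPC. Nearest to Tnc was Coch, at 0.16, with 6.43 FPKM in VM, 8.03 in VM C, 6.34 in VM NF, 1.78 in Ctx AST and 0.701 in Ctx NPC. Nearest to Cspg5 was Igfbpl1, at 0.08, followed by the fatty acid desaturases Scd2, at 0.15, and Scd1, at 0.17. Nearest to Bcan was Elavl3, a neuronal RNA-binding protein, at 0.28, and nearest to Tnr was Adcyap1r1, the PACAP receptor, at 0.46.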
